A study of Mus musculus with 8 samples.

Results

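The 4 keratin genes (Krt8, Krt18, Krt19 and Krt7) and the surface protein genes Plet1 and Vtcn1 are described here in mouse embryos at the late morula stage. They are 6 of the 19058 genes in the deposited table and were matched to it by Ensembl identifier. The 6 genes were chosen by their measured levels and knockdown changes in these same 8 libraries, so their own values are a description and carry no test. All 6 passed the filter on low values (mean abundance of 10 or more), and each also had a mean above 10 in every group.

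Polyadenylated RNA was sequenced from whole embryos collected 78 h after fertilization. Every embryo had been injected as a zygote with small interfering RNA (siRNA). The control received a non-specific siRNA, and the knockdown groups received siRNA against Rbbp4, against Rbbp7, or against both (the double knockdown), with 2 libraries per group and 4 groups. The sources used here do not give the mouse strain, the siRNA sequences or the number of embryos per library, nor whether replicate libraries were made from separate pools of embryos. A p-value below therefore measures only the spread between these libraries, which may be technical.

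Rbbp4 and Rbbp7 are closely related histone-binding proteins found in several chromatin complexes. The trophectoderm is the outer epithelium of the blastocyst, which pumps fluid into the cavity and later gives rise to the placenta, and its gene programme starts in the outer cells of the morula. Keratins are intermediate filament proteins that assemble from pairs of a type II and a type I chain. Krt8 and Krt7 are type II keratins and Krt18 and Krt19 are type I keratins, all of simple epithelia, and the Krt8 and Krt18 pair makes the earliest keratin filaments of the embryo. Plet1 is a cell surface protein known from trophoblast progenitors. Vtcn1, also called B7-H4, belongs to the B7 family of immune regulatory ligands and is known for restraining T cells.

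Krt8, Krt18 and Krt7 lie on chromosome 15 of the GRCm38 build, in the type II keratin cluster and at its edge. In the GENCODE M21 annotation Krt8 (ENSMUSG00000049382) spans chr15:101996698-102004482 on the minus strand and has 9 exons. Krt18 (ENSMUSG00000023043) spans chr15:102028180-102032027 on the plus strand and has 7 exons, so the genes of this pair start 23698 bp apart and are transcribed away from each other. Krt7 (ENSMUSG00000023039) spans chr15:101411043-101430313, plus strand, 566384 bp from Krt8. Krt19 (ENSMUSG00000020911) lies in the type I cluster at chr11:100140810-100148665, minus strand. Plet1 (ENSMUSG00000032068) lies at chr9:50494525-50505482 and Vtcn1 (ENSMUSG00000051076) at chr3:100825459-100896922, both on the plus strand.

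The promoters of Krt8 and Krt18, and those of Plet1 and Vtcn1, are shown because each of these pairs had similar profiles over the libraries. Promoter sequences of 5 of the 6 genes were matched by symbol in RefSeq (GRCm38.p6); the missing entry is Krt19. Each sequence is taken from the 250 bases before the RefSeq start, 5′ to 3′ on the gene's own strand, and for Krt8 and Krt18 only the bases outside annotated exons are printed. Krt8 covers chr15:102004483-102004592, Krt18 chr15:102027966-102028179, Plet1 chr9:50494275-50494524 and Vtcn1 chr3:100825209-100825458. Capitals mark every match, on either strand, to the 8 motifs described after the sequences.
Krt8: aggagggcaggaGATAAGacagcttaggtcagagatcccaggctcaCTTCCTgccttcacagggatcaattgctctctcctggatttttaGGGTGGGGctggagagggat
Krt18: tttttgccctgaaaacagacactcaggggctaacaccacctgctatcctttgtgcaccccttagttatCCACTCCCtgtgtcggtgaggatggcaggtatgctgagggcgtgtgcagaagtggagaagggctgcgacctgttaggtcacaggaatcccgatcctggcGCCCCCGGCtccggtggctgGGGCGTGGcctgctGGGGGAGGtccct
Plet1: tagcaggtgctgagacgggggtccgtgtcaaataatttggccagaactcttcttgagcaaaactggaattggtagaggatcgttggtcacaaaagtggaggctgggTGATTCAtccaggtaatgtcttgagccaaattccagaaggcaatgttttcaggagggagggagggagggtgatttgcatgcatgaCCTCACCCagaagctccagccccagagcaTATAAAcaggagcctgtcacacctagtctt
Vtcn1: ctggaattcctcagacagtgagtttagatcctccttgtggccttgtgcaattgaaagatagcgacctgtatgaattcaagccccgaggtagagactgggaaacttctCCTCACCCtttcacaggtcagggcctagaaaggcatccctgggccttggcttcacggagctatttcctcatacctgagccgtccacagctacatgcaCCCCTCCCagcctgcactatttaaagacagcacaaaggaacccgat

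The 8 motifs, of the TATA box and of factor families known from trophoblast or from promoters in general, were searched on both strands, and 0 matches overlapped another in these promoters. A match is a description of letters, not of a binding site. Plet1 had the TATA box TATAAA at 30 bases before its start, held by 12.4% of the 32851 RefSeq promoter windows of this length. It also had the AP-1 motif TGANTCA, held by 6.75%. Krt8 had the GATA factor motif GATAAG, held by 6.55%, and the ETS motif AGGAAG, held by 29.5%. Krt18 had the AP-2 motif GCCNNNGGC, held by 13.7%, and Krt7 had the AP-2 and ETS motifs. The KLF motif GGGNGNGG was in all 5 promoters and in 45.9% of all windows. The TEAD motif GGAATG, held by 12.6% of windows, and the CDX motif TTTATNG, held by 9.81%, were in 0 of the 5. Base composition of the 250 bases was 58% GC for Krt8, 60.4% for Krt18, 66% for Krt7, 50% for Plet1 and 51.6% for Vtcn1, against a median of 52.4%. The pairs with similar profiles shared only the KLF motif among the motifs searched.

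Values are abundance per gene normalized between libraries by the authors, called here normalized abundance. Library totals were 11334107 to 12011829. Control replicate 1 stood apart: it had 3937 genes listed at 0 and 6.21% of its signal from mitochondrial genes, against 2644 to 3237 genes and 4.26% to 5.53% in the other libraries. Some of the results that rest on it are also given without it. Rbbp4 was at 4710 and 5300 in the control and 343 to 433 in the 4 libraries of the Rbbp4 and double knockdowns. Rbbp7 was at 7205 and 8399 in the control and 266 to 327 in the 4 libraries of the Rbbp7 and double knockdowns, so the targeted RNAs were low where the labels place them.

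The major keratin pair was lowest in the Rbbp7 knockdown. Krt8 was at 4742 and 6945 in control libraries, 5272 and 4737 with Rbbp4 siRNA, 2400 and 2575 with Rbbp7 siRNA, and 3326 and 4333 with both siRNAs (replicates 1 and 2). The Rbbp7 and double knockdown libraries lay below both controls, and the Rbbp4 knockdown overlapped them. Group means were 5844 ± 1558, 5005 ± 379, 2487 ± 123 and 3829 ± 713 in that order (SD, n = 2). The log2 change of Krt8 from the control, on log2(value + 1) and with the standard error of the fit, was −0.20 ± 0.19 in the Rbbp4 knockdown, −1.21 ± 0.19 with Rbbp7 siRNA and −0.60 ± 0.19 with both siRNAs. In the Rbbp4 knockdown the difference was 0.076 without control replicate 2, so its sign depended on that library. Without control replicate 2 the double knockdown change was −0.32, and without control replicate 1 it was −0.87.

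Krt18, the type I partner of Krt8, was at 3300 and 4116 in control libraries, 3217 and 2395 with Rbbp4 siRNA, 1174 and 1421 with Rbbp7 siRNA, and 1545 and 1959 with both siRNAs. All 6 knockdown libraries of Krt18 lay below both controls, and no libraries of neighbouring groups overlapped in the order Rbbp7 knockdown, double knockdown, Rbbp4 knockdown, control. Mean levels were 3708 ± 577 in the control, 2806 ± 582, 1298 ± 175 and 1752 ± 292 (SD, n = 2), or 75.7%, 35.0% and 47.2% of the control in the Rbbp4, Rbbp7 and double knockdowns. The log2 changes were −0.41, −1.51 and −1.08, each ± 0.19. The first was −0.57 without control replicate 1, −0.25 without control replicate 2, and −0.62 and −0.20 without Rbbp4 knockdown replicates 1 and 2. Krt18 was 0.43 ± 0.19 higher on the log2 scale in the double knockdown than in the Rbbp7 knockdown, and Krt8 was 0.61 ± 0.19 higher. In whole embryos, fewer cells that express a gene and less RNA per cell cannot be told apart.

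Krt7, the other type II keratin, was lowest in the Rbbp7 knockdown. Its values were 251 and 229 in control libraries, 216 and 263 with Rbbp4 siRNA, 52.5 and 139 with Rbbp7 siRNA, and 192 and 263 with both siRNAs. The Rbbp7 knockdown libraries were the lowest of the 8 for Krt7, and the other 3 groups overlapped one another. The Rbbp7 knockdown mean of 95.8 ± 61.2 was 40.0% of the control mean of 239.6 ± 15.5 (SD, n = 2), a log2 change of −1.47 ± 0.40. The 2 libraries of that group differed widely: the change was −0.78 without Rbbp7 knockdown replicate 1 and −2.17 without replicate 2. In the Rbbp4 and double knockdowns the Krt7 changes were −0.0067 and −0.090, each ± 0.40.

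Krt19, a type I keratin without the usual tail domain, had a higher mean in each knockdown than in the control, unlike the other 3 keratins. It was at 8.27 and 26.1 in control libraries, 54.6 and 96.6 with Rbbp4 siRNA, 25.8 and 46.5 with Rbbp7 siRNA, and 141 and 205 with both siRNAs. The Rbbp4 and double knockdown libraries lay above both controls, and the double knockdown above all the others, while Rbbp7 knockdown replicate 1 lay just below control replicate 2. The control mean of 17.2 ± 12.6 compares with 75.6 ± 29.7, 36.2 ± 14.6 and 173 ± 45.9 (SD, n = 2). Log2 changes of Krt19 were 2.22, 1.17 and 3.43 in the Rbbp4, Rbbp7 and double knockdowns, each ± 0.57. Control replicate 1, the library that stood apart, held the lowest value of Krt19: without it the changes were 1.44, 0.40 and 2.66, and without control replicate 2 they were 2.99, 1.95 and 4.21.

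**Figure D1:**
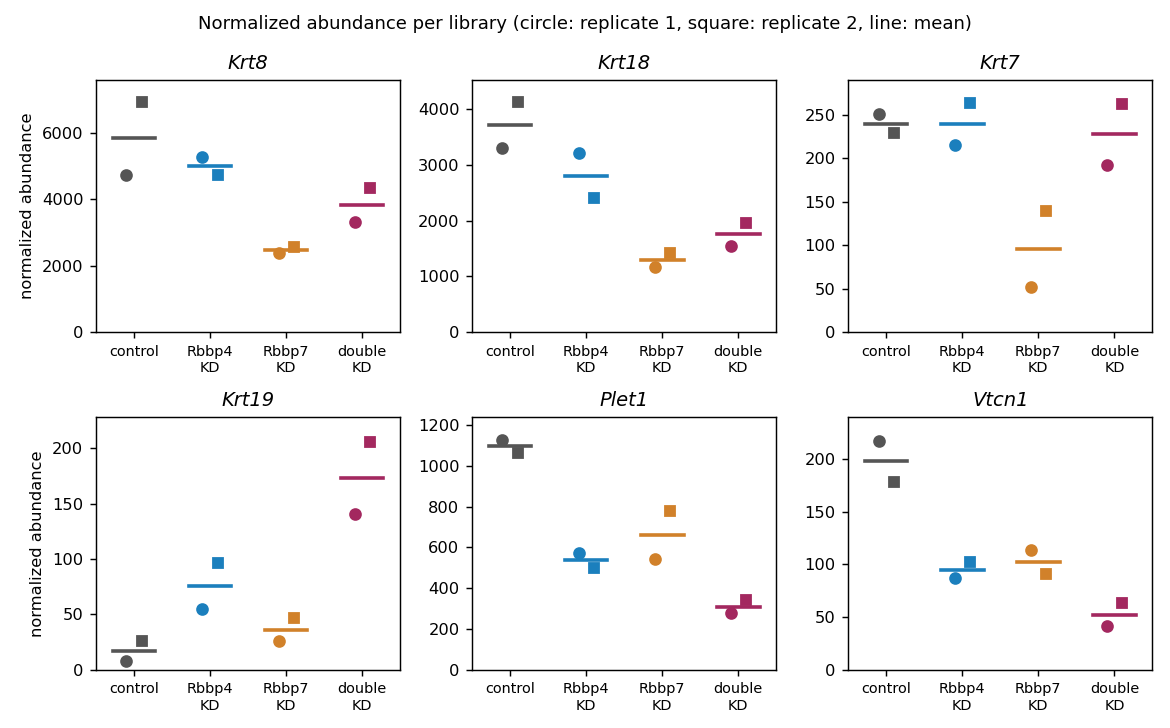
Normalized abundance of each gene (vertical axis, each panel from 0) in the 8 libraries by group; circles are replicate 1, squares replicate 2 and lines the means of 2 libraries (KD, knockdown). Krt8, Krt18 and Krt7 are lowest in the Rbbp7 knockdown, Plet1 and Vtcn1 are lowest in the double knockdown, and Krt19 is highest in the double knockdown at 141 and 205.

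Plet1 was lower in the single knockdowns than in the control and lowest in the double knockdown. It was at 1127 and 1064 in control libraries, 575 and 499 with Rbbp4 siRNA, 541 and 780 with Rbbp7 siRNA, and 278 and 340 with both siRNAs. Every single-knockdown library of Plet1 lay between the controls and the double knockdown, and the single knockdowns overlapped each other. Means were 1095 ± 44.7, 537 ± 53.6, 661 ± 169 and 309 ± 44.0 (SD, n = 2). The Plet1 log2 changes from the control were −1.03, −0.75 and −1.83, each ± 0.20, which left 49.0%, 60.3% and 28.2% of the control mean. The Rbbp7 knockdown change was −0.49 without its replicate 1 and −1.02 without its replicate 2.

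Vtcn1 had the same order at a lower level. Its values were 217 and 178 in control libraries, 86.8 and 102 with Rbbp4 siRNA, 114 and 90.8 with Rbbp7 siRNA, and 41.1 and 63.2 with both siRNAs. Here too the double knockdown lay below all single knockdowns, which overlapped each other and lay below both controls. The Vtcn1 means of 94.5 ± 10.8, 102 ± 16.4 and 52.2 ± 15.6 (SD, n = 2) were 47.7%, 51.7% and 26.4% of the control mean of 198 ± 27.6. Its log2 changes were −1.06, −0.95 and −1.93, each ± 0.31. The log2 differences of the double knockdown from the Rbbp4 and Rbbp7 knockdowns were −0.87 and −0.98 for Vtcn1, and −0.80 and −1.08 for Plet1. The knockdown comparisons share the 2 control libraries, so their changes are not independent of one another.

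**Figure D2:**
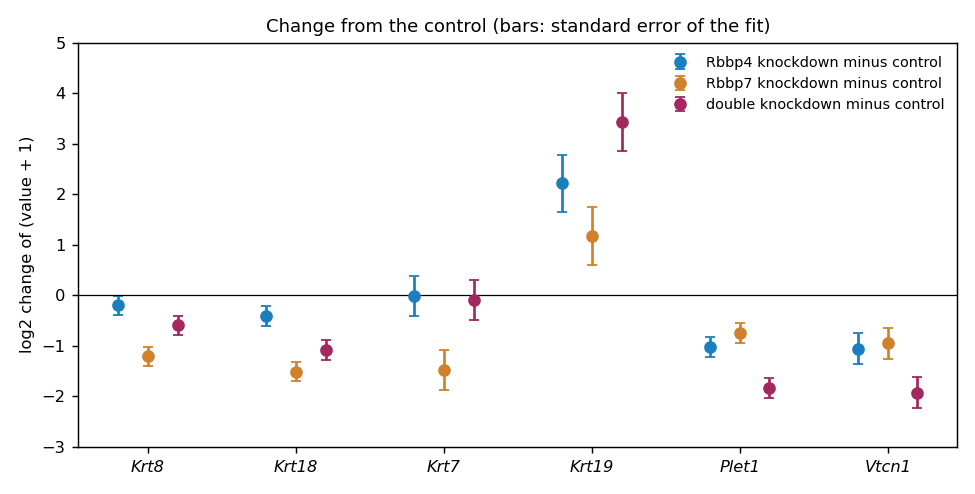
Log2 change of each gene from the control on the log2(value + 1) scale (vertical axis), with the standard error of the fit as bars, for the 3 knockdowns. Krt8, Krt18 and Krt7 have their lowest points in the Rbbp7 knockdown and Plet1 and Vtcn1 in the double knockdown, where Krt19 is at 3.43.

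Against the whole table these patterns had the following backgrounds, from which nothing is read because the same values chose the genes. At an adjusted p below 0.05 in limma with Benjamini-Hochberg adjustment over 12565 tested genes, 0 of the 6 genes were called with Rbbp4 siRNA and 0 with Rbbp7 siRNA, where 0.0239% of genes were called in each (3 and 3). With a filter at a mean of 50 or a pseudocount of 10, Krt18 was called with Rbbp7 siRNA. In the double knockdown 4 of the 6 were called (Krt18, Krt19, Plet1 and Vtcn1) against 1.15% of all genes (144). With 1 library left out, 27 to 99 genes were called in the double knockdown: Plet1 kept its call in each of the 8 such fits and Krt18 in 0, Krt19 only without Rbbp7 knockdown replicate 1 or control replicate 2, and Vtcn1 only without Rbbp7 knockdown replicate 1 or 2. Unadjusted, 736, 1200 and 2176 genes had a p below 0.05 in the Rbbp4, Rbbp7 and double knockdowns. The median log2 change of the 6 was −0.30, −1.08 and −0.84, beside 0.0049, 0.0095 and −0.00056 over all tested genes.

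Both knockdown libraries lay below both controls for 3 of the 6 genes in the Rbbp4 knockdown (17.4% of all tested genes), 5 with Rbbp7 siRNA (19.7%) and 4 with both siRNAs (22.2%). Krt19 was the gene with both double knockdown libraries above both controls (21.9% of tested genes). Krt18, Plet1 and Vtcn1 had all 6 knockdown libraries below both controls, which 5.2% of tested genes did. Plet1 and Vtcn1 were among the 150 genes (1.19%) with every control library above every single-knockdown library and every one of these above both double knockdown libraries. Krt8, Krt18 and Krt7 were among the 782 genes (6.22%) with both Rbbp7 knockdown libraries lowest of the 8.

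Per kilobase of the longest coding transcript, which allows only a rough comparison between genes, Krt8 and Krt18 made up nearly all of the keratin signal. For Krt7 this length was 4094 bp against 7049 bp over all its exons, and for Krt19 1576 bp against 1855 bp. Their levels per kilobase therefore depend on the transcript chosen. Control means per kilobase were 2985 for Krt8, 2580 for Krt18, 58.5 for Krt7 and 10.9 for Krt19, and 648 for Plet1 and 75.5 for Vtcn1. The 4 keratins summed to 4785 and 6484 per kilobase in control libraries, 5019 and 4211 with Rbbp4 siRNA, 2072 and 2367 with Rbbp7 siRNA, and 2910 and 3771 with both siRNAs. The summed keratin level was therefore below both controls in every Rbbp7 and double knockdown library, and overlapped the controls in the Rbbp4 knockdown.

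Within the keratins the share of Krt18 was lower in the double knockdown than in the control. The per-kilobase ratio of Krt8 to Krt18 was 1.05 and 1.24 in control libraries, 1.20 and 1.45 with Rbbp4 siRNA, 1.50 and 1.33 with Rbbp7 siRNA, and 1.58 and 1.62 with both siRNAs. The ratio was higher in both double knockdown libraries than in all others. Krt19 made up 0.228% and 0.576% of the type I keratin level (Krt18 plus Krt19, per kilobase) in control libraries, 1.52% and 3.55% with Rbbp4 siRNA, 1.97% and 2.90% with Rbbp7 siRNA, and 7.66% and 8.73% with both siRNAs. All 6 knockdown libraries held a larger Krt19 share than either control, also in the Rbbp7 knockdown, where the abundance of Krt19 itself overlapped the control. Krt18 is in the divisor of this share, so the share also rises where Krt18 falls. In the Rbbp7 knockdown Krt18 was at 35.0% of its control mean. The control abundance of Krt19 was low, at 8.27 and 26.1. Krt7 made up 1.04% to 2.82% of the type II level in all libraries.

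**Figure D3:**
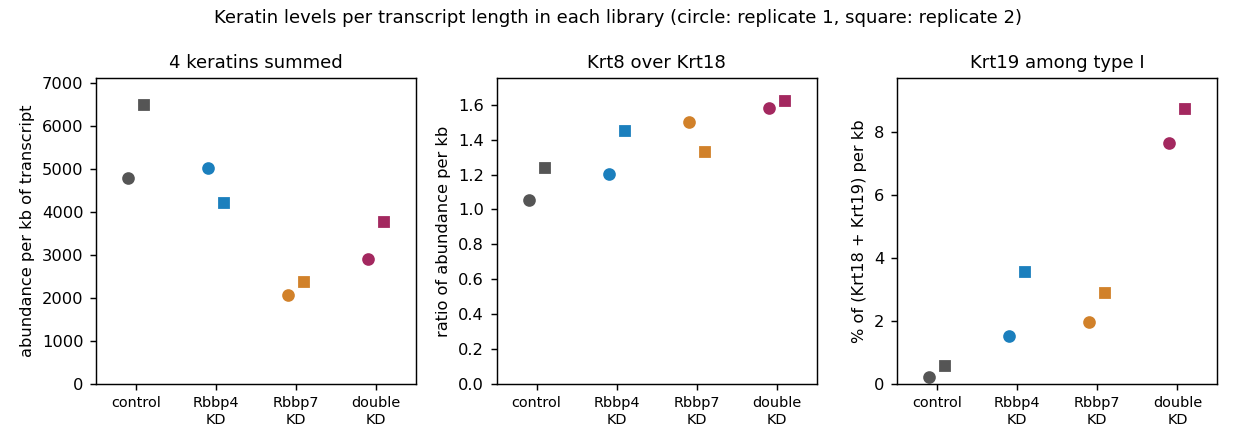
Summed level of the 4 keratins per kilobase of transcript (left), ratio of Krt8 to Krt18 per kilobase (middle) and share of Krt19 in the type I keratin level (right, percent) in each library; circles are replicate 1 and squares replicate 2. The sum is lowest in the Rbbp7 knockdown, and the ratio and the Krt19 share are highest in the double knockdown, at 1.58 and 1.62 and at 7.66% and 8.73%.

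The gene models limit some of these values. A processed pseudogene, Krt8-ps, matches Krt8 over 941 bp at 98.6% identity, the long noncoding RNA gene Gm36026 overlaps Krt8 on the opposite strand, and the antisense genes Plet1os and Gm671 overlap Plet1 and Krt7. These 4 genes were absent from the deposited table, and whether strand was used in counting is not given in the sources used here. Reads from such copies and partners therefore cannot be told apart from those of Krt8, Plet1 and Krt7. The transcripts of Krt18, Krt19, Krt7 and Vtcn1 had 0 matches to other genes of at least 95% identity over at least 100 bp.

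Of the genes within 50 kb of the 6, Eif4b, Ttf2 and Trim45 could be tested besides Krt8 and Krt18 themselves. Of these 3, 0 passed in any comparison with the control, where 0.0239%, 0.0239% and 1.15% of all tested genes were called. Within 50 kb of Krt18, the translation initiation factor gene Eif4b had log2 changes of 0.0020, 0.14 and −0.18 in the Rbbp4, Rbbp7 and double knockdowns (limma adjusted p = 0.440 for the double). Those of Ttf2, within 50 kb of Vtcn1, were −0.0096, 0.023 and 0.10 (limma adjusted p = 0.847 for the double). Krt87, a keratin gene 725 bp from Krt7, was at 7.62 and 8.02 in the control and 0.793 and 2.09 in the Rbbp7 knockdown, under the filter on low values and untested.

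Likeness between profiles was measured as the root mean square difference of log2(value + 1) over the 8 libraries after centring each gene on its own mean, over 12564 other genes. It describes these libraries and says nothing of shared control. Krt8 was the nearest of all genes to Krt18, at 0.202, and Krt18 was the 11th nearest to Krt8. Aldh1l1 (0.121), Arl6ip5 (0.128) and Sqstm1 (0.137), the last an autophagy receptor, were nearest to Krt8, and Elavl2 (0.205), Rnf32 (0.238) and Arl6ip5 (0.242) followed Krt8 for Krt18. Vtcn1 was the 6th nearest gene to Plet1 and Plet1 the 3rd nearest to Vtcn1, at 0.268. Zfp583 (0.208), Irf3 (0.236) and Pbxip1 (0.245) were nearest to Plet1, and Ccdc160 (0.190), Flot1 (0.243) and Parp6 (0.293) to Vtcn1.

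Krt7 was nearest to Klhl36 (0.175), to Eomes (0.256), a T-box transcription factor of trophoblast, and to Jade2 (0.274). Eomes was at 223 and 210.4 in the control and 44.7 and 149 in the Rbbp7 knockdown, so the same Rbbp7 knockdown library was low for both genes. Its change there of −1.39 ± 0.50 did not pass the test (limma adjusted p = 0.422). Krt19 was nearest to Shpk (0.461), Adam2 (0.468) and Oas1e (0.479), distances larger than for the other 5 genes beside a deviation of 1.36 of Krt19 from its own mean. Krt19 differed from the other 5 genes by 1.38 to 2.02.

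**Figure D4:**
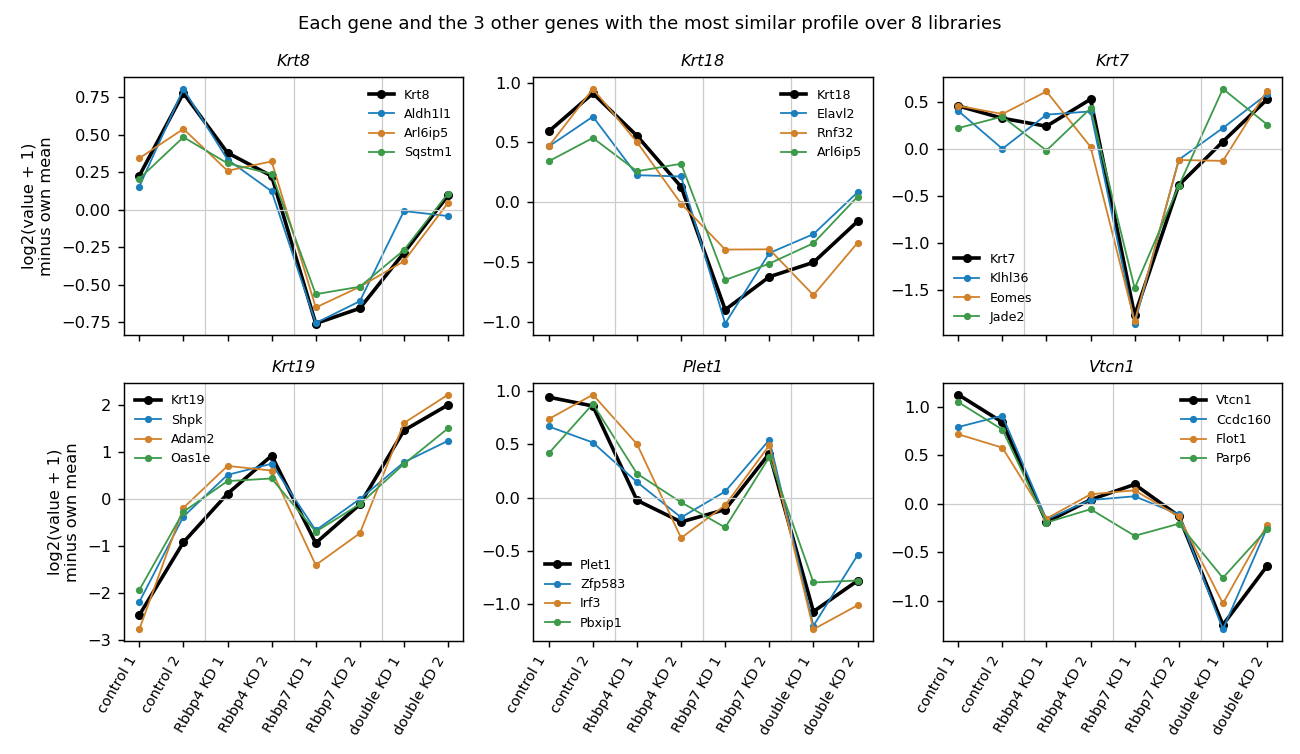
Centred log2(value + 1) of each gene (black) and of its 3 nearest genes (coloured, named in each panel) over the 8 libraries on the horizontal axis; each panel has its own vertical scale. The genes nearest to Krt8 and Krt18 are low in the Rbbp7 knockdown, those nearest to Plet1 and Vtcn1 are low in the double knockdown, and those nearest to Krt19 are high there.

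Other keratins were far below Krt8 and Krt18. In the control, Krt10 and Krt14 had means of 32.2 and 20.8, above the 17.2 of Krt19. The table holds 27 other keratin genes, of which Krt10 and Krt14 passed the filter and 0 were called. Calls over all tested genes were 0.0239% in each single knockdown and 1.15% in the double knockdown. Summed over these 27 genes, abundance was 74.1 to 119 per library in the 4 groups, below that of Krt7 alone in each library but Rbbp7 knockdown replicate 1. Krt10 had log2 changes of −0.056, 0.43 and −0.43 in the Rbbp4, Rbbp7 and double knockdowns, and Krt14 of −0.041, −0.055 and 0.30, with limma adjusted p from 0.834 to 0.997.

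The next list held partners of keratin filaments (desmosome, plakin and related genes) and other intermediate filament genes, nuclear lamins among them. Of its 21 tested genes, 0 were called in either single knockdown, where 0.0239% of all tested genes were called in each. In the double knockdown 1 rose and 1 fell, where 1.15% of all tested genes were called. The list median there was −0.041 against −0.00056 over all tested genes. This list and those that follow were written with earlier results of these data known. Their calls are therefore a description and no independent support. Synm, the intermediate filament protein synemin, was at 22.6 and 34.5 in the control and 121 and 163 in the double knockdown, and rose by 2.29 ± 0.41 (limma adjusted p = 0.0371). Its changes in the Rbbp4 and Rbbp7 knockdowns, 1.53 and 1.24, did not pass. Lmna, which encodes lamins A and C of the nuclear envelope, fell by 0.93 ± 0.18 (limma adjusted p = 0.0455). Dsp, the desmosomal plakin that anchors keratins, had log2 changes of −0.014, −0.65 and −0.54 in the Rbbp4, Rbbp7 and double knockdowns. Those of Jup, plakoglobin, were −0.36, −0.59 and −0.33. Pkp2 had changes of −0.15, 0.0088 and −0.30, Plec of 0.078, −0.13 and −0.052, and Vim of −0.33, −0.96 and 0.15. None of these passed the test. Among the 21 genes, 13 had a negative and 8 a positive change in each single knockdown, and 12 and 9 in the double knockdown. The Synm call was made in 0 of the 8 fits that each leave out 1 library, and the Lmna call in 1, without control replicate 1. Over the 16 alternatives the adjusted p ranged from 0.0342 to 0.134 for Synm and from 0.0369 to 0.212 for Lmna.

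Of 34 tested trophectoderm surface and transport genes, 0 were called in the Rbbp4 knockdown, 2 fell in the Rbbp7 knockdown, and 4 fell and 0 rose in the double knockdown. Of all tested genes, 0.0239%, 0.0239% and 1.15% were called in these knockdowns. Rbbp7 itself was among the 3 genes called in the Rbbp7 knockdown. Fabp3, a fatty acid-binding protein, was at 4649 and 4563 in the control, 1984 and 1528 with Rbbp7 siRNA and 2465 and 2242 with both siRNAs. It fell by 1.40 ± 0.15 in the Rbbp7 knockdown (limma adjusted p = 0.0176) and by 0.97 ± 0.15 in the double knockdown (limma adjusted p = 0.0243). Enpep, a membrane aminopeptidase, fell by 1.62 ± 0.14 in the Rbbp7 knockdown (limma adjusted p = 0.00547) and by 0.85 ± 0.14 in the double knockdown (limma adjusted p = 0.0306). Like Krt8 and Krt18, Fabp3 and Enpep had their lowest mean in the Rbbp7 knockdown. Both genes were named with earlier results of these data known, so their p-values are no independent support.

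Atp1b1, a subunit of the sodium pump, fell by 1.13 ± 0.14 in the double knockdown (limma adjusted p = 0.0144), and Ptges, prostaglandin E synthase, by 0.71 ± 0.14 (limma adjusted p = 0.0477). The list median was −0.014, −0.24 and −0.12 in the Rbbp4, Rbbp7 and double knockdowns. In the Rbbp7 knockdown the Fabp3 call was lost without either Rbbp4 knockdown library, without control replicate 1 and without the group's own replicate 2, with an adjusted p of 0.00982 to 0.152 over the alternatives. The Enpep call there was lost without the group's own replicate 2 and without control replicate 1 (0.00282 to 0.121). In the double knockdown, fits that left out 1 library kept the Atp1b1 call except without double knockdown replicate 2 (0.0125 to 0.114 over the alternatives). They kept the Fabp3 call only without Rbbp7 knockdown replicate 1 or 2 (0.0199 to 0.111), the Enpep call only without double knockdown replicate 2 (0.0242 to 0.161), and the Ptges call in 0 of 8 (0.0378 to 0.197).

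Among 22 tested transcription regulators of the trophectoderm, 0 were called in the single knockdowns and 1 fell in the double knockdown. Over all tested genes, 0.0239% were called in each single knockdown and 1.15% in the double knockdown. Id2, an inhibitor of DNA binding by helix-loop-helix factors, was at 330 and 296 in the control and 108 and 93.8 in the double knockdown, and fell by 1.62 ± 0.21 (limma adjusted p = 0.0144). That call was lost without control replicate 1 or double knockdown replicate 2, and its adjusted p ranged from 0.0132 to 0.116 over the alternatives. Cdx2, which marks the trophectoderm, was at 1771 and 2869 in the control, and Gata3 at 2598 and 3065, so the lineage's defining regulators were expressed at this stage. In the double knockdown the log2 change of Cdx2 was −0.80 ± 0.21 (limma adjusted p = 0.101) and that of Gata3 −0.53 ± 0.13 (limma adjusted p = 0.0943). Changes there were −0.27 for Tead4, −0.15 for Tfap2c, −0.13 for Klf5, −0.17 for Eomes, 0.073 for Elf5 and 0.16 for Yap1. Among the 22 regulators, 14 had a negative and 8 a positive change in the double knockdown, with Tead3 at 1.01 among the latter. The medians of the regulator list were −0.064, −0.22 and −0.14 in the Rbbp4, Rbbp7 and double knockdowns.

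The lists written around Plet1 and Vtcn1 gave 1 call. None of the 10 tested genes of the B7 and related surface list was called, with medians of −0.015, −0.014 and 0.13. Nectin genes, H2-K1, H2-D1 and B2m, which are outside the B7 family, were among the tested genes. The B7 genes Cd274, Cd276 and Cd80 were at or near 0 in most libraries. Icosl and Vsir, also of this family, had means of 118 and 36.3 over the 8 libraries, beside 112 for Vtcn1. Of all tested genes, 0.0239% were called in each single knockdown and 1.15% in the double knockdown. Of 27 tested genes for surface proteins anchored by glycosylphosphatidylinositol, the anchor type of Plet1, 1 rose there. It was Efna3, ephrin-A3, at 360 and 374 in the control and 768 and 594 in the double knockdown, up by 0.88 ± 0.17 (limma adjusted p = 0.0476). The call was made in 0 of the 8 fits without 1 library, and its adjusted p over the alternatives was 0.0379 to 0.211. Of 18 tested trophoblast stem cell genes 0 were called, with medians of 0.036, −0.21 and −0.0029.

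**Figure D5:**
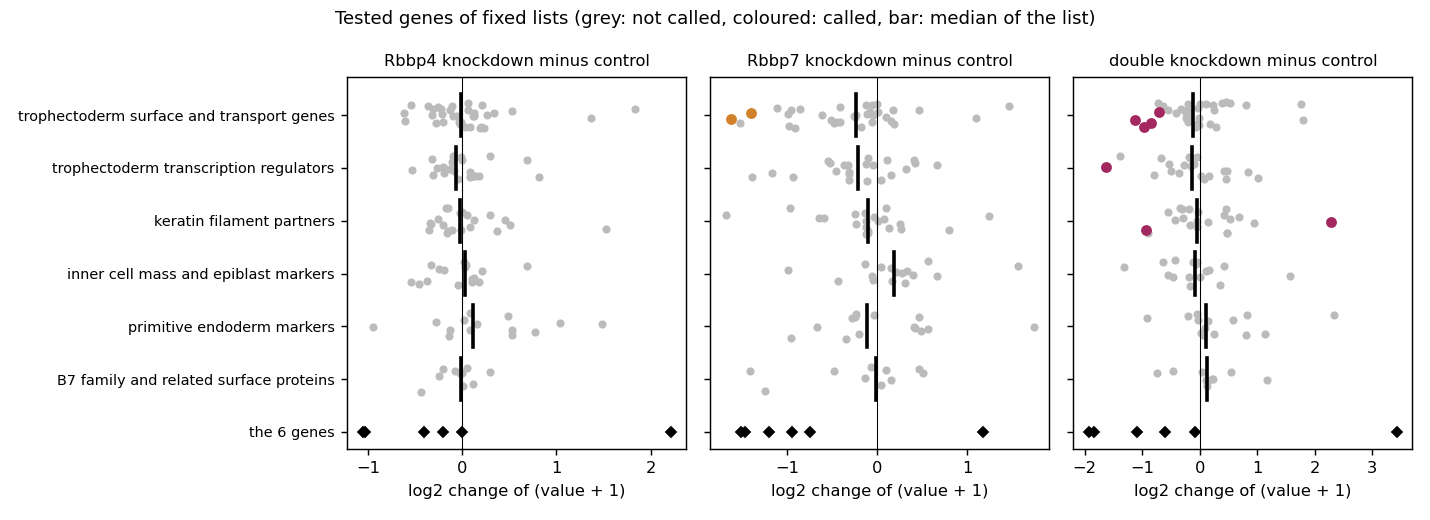
Log2 change from the control (horizontal axis) of every tested gene of 6 lists and of the 6 genes (black diamonds) in each knockdown; coloured points passed the test, grey points did not, and bars are list medians. In the double knockdown the called genes are Id2, 4 surface and transport genes and, in the filament partner list, the lamin gene Lmna at −0.93 and Synm at 2.29.

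Markers of the other lineages were present in all groups. The lists share genes, for example Dab2, Cubn and Amn between the surface and transport list and the primitive endoderm list. Esrrb is in the trophectoderm regulator, trophoblast stem cell and inner cell mass lists. Of 16 tested inner cell mass and epiblast markers 0 were called, with medians of 0.025, 0.19 and −0.089. Of 14 tested primitive endoderm markers 0 were called, with medians of 0.12, −0.12 and 0.12. The share of all tested genes called was 0.0239% in each single knockdown and 1.15% in the double knockdown. Summed over 17 inner cell mass markers, abundance was 51624 and 56665 in control libraries, 53723 and 53725 with Rbbp4 siRNA, 61570 and 63759 with Rbbp7 siRNA, and 47916 and 52320 with both siRNAs. The Rbbp7 knockdown, where the keratin sum was lowest, thus had the highest inner cell mass sum, in which a few abundant genes weigh most. Of the 16 tested markers, 11 had a positive and 5 a negative log2 change there. Nanog, an epiblast factor, was among the former at 0.56 ± 0.11 (limma adjusted p = 0.168) and Sox2, a pluripotency factor, among the latter at −0.99 ± 0.62 (limma adjusted p = 0.647). Summed over 35 surface and transport genes, abundance was 101908 and 105026 in control libraries, 100661 and 102674 with Rbbp4 siRNA, 81483 and 81735 with Rbbp7 siRNA, and 88570 and 92004 with both siRNAs. Lrp2 weighed most in this sum, at 21859 and 20929 in control libraries and 10437 and 13401 with Rbbp7 siRNA. Of the 34 tested genes of this list, 25 had a negative and 9 a positive log2 change with Rbbp7 siRNA. The part of lineage composition in the keratin levels was not tested.

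Markers of granulosa, cumulus and blood cells, and oocyte transcripts, differed widely in level. Among 9 granulosa and cumulus markers in the table, Nr5a2 and Serpine2, which embryos also express, had means of 3364 and 488, and the rest had means of 0.281 to 39.5 over the 8 libraries. The haemoglobin gene Hba-a1 had a mean of 8.02 and the red cell enzyme gene Alas2 of 0.416, while the phagocyte gene Cd68 and the blood factor gene Spi1 had means of 264 and 214. Foxl2, a granulosa cell transcription factor chosen here after its values were seen, was at 29.3 and 12.0 in the control and 101 and 74.4 in the double knockdown, a log2 change of 2.14 ± 0.51 that did not pass the test (limma adjusted p = 0.0892). The sum over 9 granulosa markers, most of it Nr5a2, was 3453 to 4457 in the control and 3561 to 4176 in the knockdowns. Sums over 19 oocyte transcripts, most of them Khdc3 (mean 11736), were 11546 to 14077 in the control and 11247 to 14230 in the knockdowns. Whether RNA of these lists came from other cells or from the embryo itself was not tested. The part of other cells in the levels of the 6 genes was not tested either. From the granulosa, oocyte and blood lists 0 genes were called. The called share of all tested genes was 0.0239% in each single knockdown and 1.15% in the double knockdown.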

How the data were processed

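RNA was measured in 8 libraries of late morulae. Per the submitters' processing notes, Trimmomatic, HISAT2, featureCounts and DESeq2 and the build GRCm38 were used; the sources used here give no versions, settings or strand use. The authors deposited a signal: gene abundance normalized with DESeq2, per the table's name. In each library only 41.5% to 63.8% of low values fell within 0.05 of whole steps, so whole reads could not be recovered, no count model was fitted and depth is known only roughly. Of 19058 genes, 18942 matched a symbol and 0 columns lay outside the groups.

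Values were analysed as log2(value + 1), which understates changes of low genes. Genes averaging 10 or more (12565) were fitted in limma 3.58.1 (R 4.3.3) with 1 mean per group and a variance trend, two-sided, with 4 residual and 5.18 prior degrees of freedom. Benjamini-Hochberg adjustment ran within each comparison, with calls below 0.05. An error after a log2 change is the fit's standard error. The alternatives were other pseudocounts, filters, scalings and fits, and leaving out each library. Transcripts were compared with blastn 2.17.0, and lengths are of the longest coding transcript. The named genes are the 6, the 3 nearest to each in profile, up to 4 called genes per list, and fixed markers. The members and lists were chosen with earlier results of these data known.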

Additional observations from a re-analysis of the deposited data

Results flagged for a closer look

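Krt18 was singled out because Rbbp4 siRNA went with opposite directions in the absence and in the presence of Rbbp7 siRNA. Its log2 change from the control to the Rbbp4 knockdown was −0.41, with both libraries lower (−0.62 to −0.20 with 1 library left out), and from the Rbbp7 knockdown to the double knockdown it was 0.43, with both libraries higher. The difference was not tested.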

How the results depend on the processing

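Fitting only the 2 groups compared left 2 calls in the double knockdown against 144 in the fit of all groups, and none of the 4 calls among the 6 genes. In the Rbbp7 knockdown, 6 genes were called with a mean of at least 50 and 7 with a pseudocount of 10, against 3; Krt18 was among the called genes in both. Leaving out each library in turn gave 27 to 99 calls in the double knockdown (27 and 33 without its replicates 1 and 2, 47 without control replicate 1, 30 and 43 without Rbbp4 knockdown replicates 2 and 1, 70 and 71 without Rbbp7 knockdown replicates 2 and 1). It gave 2 to 36 calls in the Rbbp4 knockdown (36 without control replicate 2, 6 without its own replicate 2) and 1 to 38 in the Rbbp7 knockdown (38 without control replicate 2, 10 without its own replicate 1, 1 without control replicate 1 or its own replicate 2). In these fits a group's lone library is assumed to vary like the other groups; the cause of the other shifts was not tested.

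Log2 changes with 1 library left out ranged, in the Rbbp4, Rbbp7 and double knockdowns, from −0.47 to 0.076, −1.48 to −0.93 and −0.87 to −0.32 for Krt8, and from 1.44 to 2.99, 0.40 to 1.95 and 2.66 to 4.21 for Krt19. Krt18 ranged from −0.62 to −0.20, −1.67 to −1.35 and −1.25 to −0.91. Krt7 ranged from −2.17 to −0.78 and Plet1 from −1.02 to −0.49 in the Rbbp7 knockdown, and Vtcn1 from −2.23 to −1.63 in the double knockdown. The sign changed in 1 of the 16 alternatives for Krt8 in the Rbbp4 knockdown, and for Krt7 in 3 for the Rbbp4 knockdown and in 1 for the double.

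With the replicate number as a block, 2, 3 and 113 genes were called in the Rbbp4, Rbbp7 and double knockdowns. Deviations of same-numbered libraries had correlations across genes of −0.022 to 0.051. Such correlations over all genes cannot show whether same-numbered libraries shared a batch, and the labels do not say. Depth is known only roughly, which limits the reading of Krt19 in the control and of Krt87.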
